A study of Neurospora crassa with 12 samples.

Results

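The comparison is between conidia of Neurospora crassa that had begun polar growth (stage 2) and germlings whose germ tubes were extending (stage 3), both on Bird medium at 37 °C. Its members are the 3 libraries labelled stage 2 and the 3 labelled stage 3, 6 of the 12 libraries of the series, and all genes were compared between them. Neurospora crassa is a filamentous ascomycete that spreads by asexual spores, the conidia. The strain in all groups was FGSC2489, the wild type of mating type A, with no treatment or mutation that differs between groups. Conidia were harvested from mature cultures, spread on cellophane over the medium and kept in constant white light. Stages were scored under the microscope, stage 2 by the appearance of polar growth and stage 3 by the doubling of the longest axis of the spore, and each was taken when most but not all spores had reached it. Each library is therefore a mixture of spores of different progress, and it pools tissue of several plates. The labels disagree on the times. Titles give 60 min for stage 2 and 120 min for stage 3, and the time point tags give 120 and 240 min, with the same grouping under both. For Bird medium at 37 °C the study's methods state roughly 60 and 120 min for these stages, which the titles match. The tags match the times stated there for potato dextrose agar. The other 6 libraries are fresh conidia (stage 1) and germlings at the start of hyphal branching (stage 4).

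A germinating conidium leaves dormancy, swells, fixes an axis of polarity and extends a germ tube by adding wall and membrane at its tip. The spore carries stored transcripts of conidiation genes and a hydrophobin coat, and these are replaced by the transcripts of growth. Young germlings of this species also sense each other and fuse, through MAP kinase cascades that are recruited to the tips in turn. Extension of the tube draws on respiration and on the synthesis of amino acids, lipids and wall polymers.

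Total counts were between 48267425 and 71273660 in the 6 libraries, so that 3 counts corresponded to 0.0483 to 0.0682 CPM. CPM are counts per 1000000 counts of the library after removal of 2 ribosomal RNA rows (NCU17319 and NCU15719) and scaling by TMM factors of 0.97 to 1.05. These rows took between 5.37 and 9% of the counts in 5 libraries and 37.7% in stage 3 replicate 2, where mitochondrial transcripts were also in excess. That library stood apart from the other libraries of its stage. The SD of the log2 ratio between libraries, over 5863 genes, was 0.169 between stage 3 replicates 1 and 3 but 0.265 to 0.268 for the pairs with replicate 2. It was 0.170 to 0.178 within stage 2 and 0.416 to 0.483 between the stages. Libraries of stages 2 and 4 were as close to each other as replicates (0.133 to 0.178), and in a fit of all 12 libraries edgeR called 0 of 8334 genes between these stages, with 138 at an unadjusted p below 0.05 and 2 called by DESeq2. Stages 2 and 4 could thus not be told apart in these libraries. Whether libraries of any stages were exchanged cannot be settled from the files, so stages are named throughout as the labels give them, and the direction of each change rests on those labels. The row of the opposite mating type, mat_a1, had 0 counts in all 6 libraries. That row has no coordinates in the reference. Whether reads could be assigned to it was not tested, so the value does not show the mating type. Genes chosen as markers of growing hyphae (6 genes, among them tef-1, actin and the plasma membrane proton ATPase pma-1) summed to between 32700 and 43300 CPM in the 6 libraries. Their sum had a mean of 34500 CPM in fresh conidia and 42100 CPM in stage 4. It therefore did not set growing hyphae apart from conidia.

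Transcript levels changed broadly and mostly by small amounts. Of 8047 genes tested, 3473 were called at an edgeR adjusted p below 0.05 (43.2% of the genes tested), 1813 of them higher in stage 3 (22.5%) and 1660 lower (20.6%). The median change among all tested genes was -0.0065 on the log2 scale, and 95% of them lay between -1.10 and 1.17. Among the called genes the median size was 0.40 (log2), a 1.32-fold difference. A change of at least 2-fold was seen for 448 called genes (5.57%), 244 higher and 204 lower, and a change of at least 4-fold for 32 higher and 62 lower. The libraries of the stages did not overlap for 4533 tested genes (56.3%) and for 3453 of those called. Without stage 3 replicate 2 the test called 3992 genes, 2035 higher and 1957 lower. In the counts below, libraries named after the word without were each left out singly. Shares given below in brackets after the counts of a list are the percentages of its tested members that were higher and lower, beside 22.5% and 20.6% of all tested genes. Scaling by the plain library totals moved the division to 2140 higher and 1214 lower (63.8% higher, against 52.2% in the main result). Nothing in the labels places the replicates in separate cultures beyond the study's statement that they are biological replicates, and the p-values measure the spread between these libraries.

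**Figure D1:**
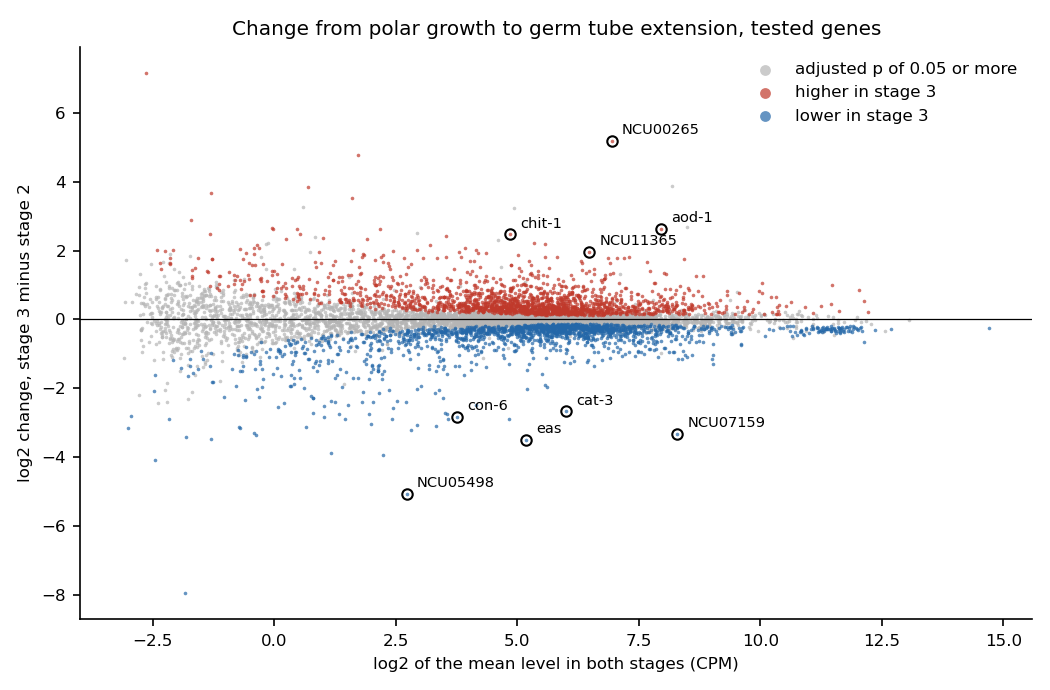
Log2 change from stage 2 to stage 3 (vertical axis) against the log2 of the mean level of both stages in CPM (horizontal axis) for the 8047 tested genes. Each point is a gene, red where higher in stage 3, blue where lower and grey where the adjusted p was 0.05 or more, and circles mark 9 of the genes described in the text. NCU00265 and NCU05498 lie far from the other circled genes at 5.19 and -5.06.

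The largest rise among genes of at least 10 CPM was that of NCU00265 (chromosome III, 3218739 to 3220987 in assembly NC12), for which the sources used here give no name or function. It measured 6.39, 6.58 and 6.58 CPM in stage 2 and 253, 191 and 272 CPM in stage 3 (log2 change 5.19 ± 0.14 (SE), adjusted p = 7.39e-07). All stage 3 libraries lay far above all stage 2 libraries, and the gene was as low in stage 1 (mean 2.72 CPM) and in stage 4 (6.09 CPM) as in stage 2. Next came aod-1 (chromosome IV, 1234976 to 1237012), which encodes the alternative oxidase of the mitochondrial inner membrane, with 74.1, 77.8 and 53.2 CPM in stage 2 and 449.9, 428 and 396 CPM in stage 3 (log2 change 2.63 ± 0.14 (SE), adjusted p = 5.12e-06). Its lowest stage 3 library was above its highest stage 2 library by a wide margin. The chitinase gene chit-1 had 8.09, 8.66 and 9.499 CPM in stage 2 and 51.3, 27.6 and 67.4 CPM in stage 3 (log2 change 2.48 ± 0.29 (SE), adjusted p = 0.000251). Its stage 3 libraries differed among themselves, with replicate 2 lowest, and its annotated span overlaps NCU14003. The other genes with the largest rises were NCU09165 (2.43), NCU05958 (2.21), NCU00149 (2.20), NCU01579 (2.15), NCU08786 (2.09), NCU17064 (2.02, a gene of secondary metabolism cluster 12), NCU05160 (2.01), NCU11365 (1.97) and NCU07748 (1.95), all values being log2 changes. The most abundant of these, NCU11365, had 36.9, 37.4 and 34.0 CPM in stage 2 and 127, 160.5 and 137 CPM in stage 3. NCU00149, NCU05160 and NCU11365 overlap other annotated genes, and reads of the same strand could have been divided between them.

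The largest fall was that of NCU05498 (chromosome VI, 1720685 to 1722278), also without a name here. It measured 8.0, 23.3 and 7.21 CPM in stage 2 and 0.435, 0 and 0.639 CPM in stage 3 (log2 change -5.06 ± 0.71 (SE), adjusted p = 0.000735). Stage 2 replicate 2 was far above the other stage 2 libraries, and 1 stage 3 library had no count. The hydrophobin gene eas (chromosome II, 3570905 to 3572798), whose product forms the water-repellent rodlet coat of the conidium, had 66.0, 66.0 and 65.9 CPM in stage 2 and 6.06, 6.27 and 5.35 CPM in stage 3 (log2 change -3.49 ± 0.072 (SE), adjusted p = 1.73e-07), with almost no spread within stage 2. NCU07159 (chromosome V, 6393167 to 6395707) was the most abundant gene among those that fell furthest, with 617, 634 and 447 CPM in stage 2 and 60.2, 54.7 and 55.7 CPM in stage 3 (log2 change -3.32 ± 0.14 (SE), adjusted p = 1.86e-06). The remaining large falls were in NCU01107 (-3.22), NCU01064 (-3.09), NCU04415 (-3.07), NCU04276 (-2.89), NCU04539 (-2.88), the conidiation gene con-6 (-2.82), NCU01510 (-2.73) and the catalase genes cat-1 (-2.70) and cat-3 (-2.66), again as log2 changes. NCU04276 varied as NCU05498 did, with 23.6, 86.5 and 40.0 CPM in stage 2 and 5.65, 4.06 and 10.48 CPM in stage 3, stage 2 replicate 2 again being highest. NCU01064 and con-6 overlap other annotated genes.

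**Figure D2:**
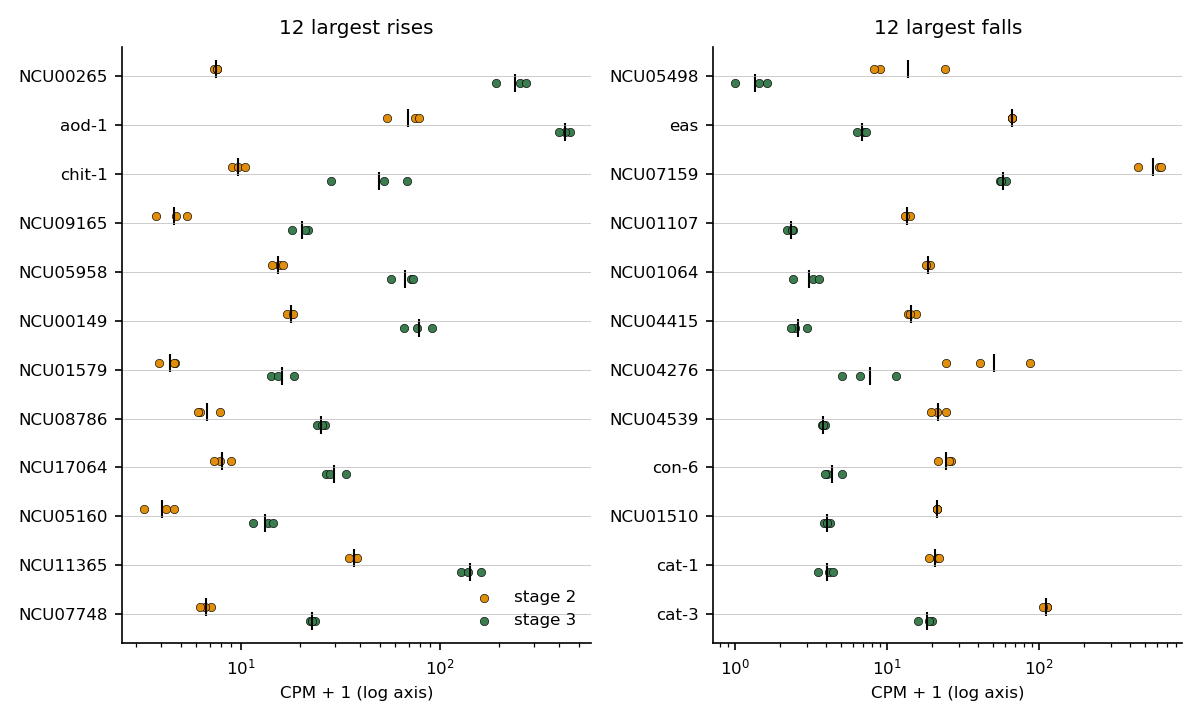
Level of each of the 12 genes with the largest rise (left) and the 12 with the largest fall (right) in each library, as CPM + 1 on a log axis. Orange points are the 3 stage 2 libraries, green points the 3 stage 3 libraries, and the black bar is the mean of each stage. The stages do not overlap for any of these genes, which the choice of genes required, and chit-1, NCU05498 and NCU04276 show the widest spread within a stage.

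Conidial genes were the group with the deepest falls. Of 15 genes of conidial development 14 were tested, and 3 rose while 6 fell (21.4% and 42.9%, median log2 change -0.33, against -0.0065 for all tested genes). Besides eas, the genes that fell were con-8, con-6, ccg-1, con-10 and ccg-14. Of these, con-6, con-8 and con-10 are conidiation genes whose transcripts accumulate in developing conidia, and ccg-1 is a clock-controlled gene. For con-6 the values were 25.6, 24.8 and 20.86 CPM in stage 2 and 4.09, 3.03 and 2.92 CPM in stage 3. For con-8 they were 11.01, 8.72 and 8.49 CPM in stage 2 and 1.16, 1.38 and 1.25 CPM in stage 3 (log2 change -2.90 ± 0.14 (SE), adjusted p = 3.55e-06). Every stage 3 library was below every stage 2 library for both genes. The small gene ccg-1 had 20.5, 17.7 and 16.7 CPM in stage 2 and 3.40, 4.83 and 3.08 CPM in stage 3 (log2 change -2.29 ± 0.17 (SE), adjusted p = 2.26e-05), and con-10 fell from 2.45 ± 0.457 to 0.619 ± 0.191 CPM (mean ± SD, n = 3). In the other direction, ccg-16 rose from 147 ± 8.24 to 308 ± 34.5 CPM (1.07 on the log2 scale), ccg-9, a gene of trehalose synthesis, rose from 0.265 to 1.67 CPM and remained low, and ccg-8 rose by 0.27. No count of con-13 was found in any of the 6 libraries.

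The fall in stage 3 came after a much larger loss. The 8 conidial markers eas, con-6, con-8, con-10, con-13, ccg-1, ccg-9 and ccg-13 summed to a mean of 15000 CPM in fresh conidia, to between 116 and 126 CPM in the stage 2 libraries, to between 15.4 and 18.8 CPM in stage 3 and to a mean of 113 CPM in stage 4. Much of this sum was eas, with means of 12230 CPM in fresh conidia, 66.0 CPM in stage 2 and 5.89 CPM in stage 3. Of the genes that rose in stage 3, ccg-9 was among the markers, and ccg-16 and ccg-8 were not. Stages 1 and 4 were scaled here together with all 12 libraries. In bulk samples such as these, fewer ungerminated spores and less RNA per spore cannot be told apart. Of 8 regulators of conidiation 3 were higher and 2 lower (37.5% and 25%). The conidiation gene acon-3 rose from 2.55 to 4.74 CPM (log2 change 0.89 ± 0.14), the velvet gene ve-1 by 0.59 and fld by 0.44, and the conidial separation genes csp-1 and csp-2 changed by -0.17 and -0.34. The count of lower regulators was 1 without stage 2 replicates 1 and 2 or stage 3 replicates 1 and 3. The master regulator fl was at 7.49, 7.59 and 7.65 CPM in stage 2 and 7.65, 6.72 and 7.48 CPM in stage 3 (adjusted p = 0.618).

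Genes of respiratory complex I rose together. Complex I oxidises NADH and feeds electrons into the respiratory chain, and most of its subunits are encoded in the nucleus. All 30 listed nuclear genes were tested, of which 25 were higher in stage 3 (83.3%, against 22.5% of all genes tested) and 1 lower, with a median log2 change of 0.68. The number higher was 24 or 25 under each of the 15 alternative settings, and 25 without stage 3 replicate 2. The largest change was that of nuo20.1, with 15.5, 14.7 and 15.6 CPM in stage 2 and 29.4, 36.4 and 30.8 CPM in stage 3 (log2 change 1.08 ± 0.092 (SE), adjusted p = 4.75e-05). For nuo10.6 the libraries were at 29.7, 33.4 and 33.3 CPM in stage 2 and 59.6, 69.5 and 65.9 CPM in stage 3 (log2 change 1.01 ± 0.071 (SE), adjusted p = 1.94e-05). The stages were well separated for both. The gene nuo24 rose by 0.99 ± 0.092, and nuo51, whose product binds NADH and its flavin, rose by 0.64 ± 0.079. The iron-sulfur subunit nuo78 rose from 60.1 ± 3.98 to 95.3 ± 1.50 CPM (0.67). The exceptions were few. The gene nuo17.8 fell from 100.3 ± 1.03 to 78.4 ± 5.19 CPM (log2 change -0.35 ± 0.057 (SE), adjusted p = 0.00144), and nuo10.5 (0.10), nuo14.8 (0.01), nuo40 (0.00) and the acyl carrier protein acp-1 (-0.01) were not called. The genes cia30 and cia84, which encode assembly factors of complex I and were looked up after the values of the list had been seen, were higher as well, with 39.3, 40.5 and 38.9 CPM in stage 2 and 59.7, 61.3 and 57.1 CPM in stage 3 for cia30 (log2 change 0.58 ± 0.045 (SE), adjusted p = 3.07e-05) and 46.3, 49.8 and 57.1 CPM in stage 2 and 88.5, 84.8 and 90.4 CPM in stage 3 for cia84 (log2 change 0.78 ± 0.075 (SE), adjusted p = 9.36e-05).

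Of 11 nuclear genes for complexes III to V and cytochrome c, 1 was higher and 0 lower (9.09% and 0%; 0 lower at an unadjusted p below 0.05 and 0 in DESeq2). The gene called was cyc-1 for cytochrome c, with 2266, 2185 and 1816 CPM in stage 2 and 2681, 3009 and 2573 CPM in stage 3 (log2 change 0.40 ± 0.094 (SE), adjusted p = 0.00964). The median over the list was -0.02, and the 10 other genes lay between -0.07 (fes-1, the Rieske iron-sulfur protein) and 0.11 (cya-4). Without stage 3 replicate 2 a further gene of this list was called. ATP synthase genes were highly expressed and close between stages, with a log2 change of -0.03 ± 0.077 for atp-1 and -0.06 ± 0.13 for atp-2. The list for complexes III to V was drawn from gene symbols, which most genes lack in the reference, so subunits without a symbol are not covered. No test was made of the difference between this list and that of complex I.

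Alternative respiration bypasses the cytochrome pathway, passing electrons from quinone straight to oxygen. Of 8 genes, 2 were higher and 1 lower (25% and 12.5%), the lower count being 0 without stage 2 replicates 1, 2 and 3 or stage 3 replicate 1 and 0 with library totals. Besides aod-1, aod-3, another alternative oxidase gene, rose from 1.43 ± 0.362 to 3.19 ± 0.151 CPM (log2 change 1.14 ± 0.19 (SE), adjusted p = 0.00193). The transcription factor genes aod-2 and aod-5, both needed for induction of aod-1, had log2 changes of -0.21 ± 0.073 (adjusted p = 0.0431) and 0.04 ± 0.10 (adjusted p = 0.775). The alternative NADH dehydrogenases nde-1, nde-2, nde-3 and ndi-1 lay between -0.10 and -0.03 and were not called.

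**Figure D3:**
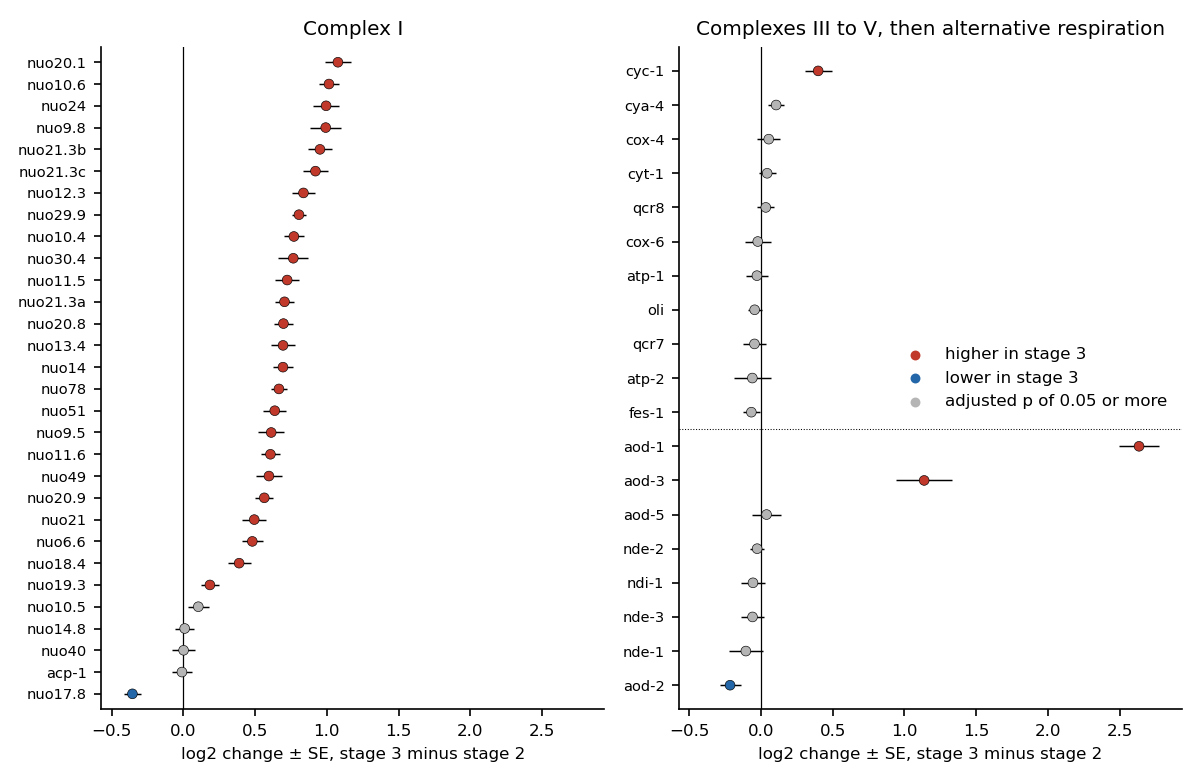
Log2 change from stage 2 to stage 3 with its standard error (horizontal axis) for each nuclear gene of complex I (left) and for genes of complexes III to V and of alternative respiration (right, above and below the dotted line). Red points were higher in stage 3, blue points lower and grey points had an adjusted p of 0.05 or more. Of the complex I genes 25 are called higher and 1 lower, whereas in the right panel only cyc-1, aod-1 and aod-3 are called higher and only aod-2 lower.

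Transcripts encoded on the mitochondrial chromosome depended on stage 3 replicate 2. The 32 tested rows summed to 545 to 883 CPM in stage 2, to 766 and 580 CPM in stage 3 replicates 1 and 3, and to 4050 CPM in replicate 2. Their median log2 change was 0.87, yet 2 were called, NCU16002 (3.80, 3.91 and 3.79 CPM in stage 2 and 6.15, 10.3 and 7.04 CPM in stage 3, log2 change 1.03 ± 0.18) and NCU16009 (0.233, 0.193 and 0.363 CPM in stage 2 and 0.370, 4.08 and 0.607 CPM in stage 3). For NCU16009 the rise rests on replicate 2. The number called higher was 1 without stage 2 replicates 1, 2 and 3 or stage 3 replicate 2, 8 without stage 3 replicate 3 and 11 without stage 3 replicate 1. Without stage 3 replicate 2, 3 rows were called lower, against 0 with that library, and the median turned to -0.20. The libraries were made from polyadenylated RNA, and the part that carry-over of other RNA had in these values was not tested.

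Of 17 genes of the tricarboxylic acid cycle 1 rose (tca-16, 0.30) and 2 fell (tca-5, -0.37, and tca-13, -0.30), or 5.88% and 11.8%. Falls numbered 1 without stage 2 replicates 1, 2 and 3 and 5 without stage 3 replicates 1 and 2, the higher count was 5 without stage 3 replicate 2, and the counts were 4 higher and 1 lower with library totals. Of 7 glycolytic genes, emp-1 (0.19) and emp-3 (0.19) rose while pgk (-0.36) and emp-6 (-0.24) fell (28.6% and 28.6%). The higher count was 0 without stage 2 replicates 1, 2 and 3 or stage 3 replicate 1 and 1 without stage 3 replicate 3, and the lower count 1 without stage 2 replicates 1, 2 and 3. The glyceraldehyde-3-phosphate dehydrogenase gene gpd-1 was at 5104, 5229 and 5066 CPM in stage 2 and 5002, 4154 and 4980 CPM in stage 3 (adjusted p = 0.215).

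Of 7 genes of the glyoxylate cycle, gluconeogenesis and fermentation, 4 were higher and 2 lower (57.1% and 28.6%), and the same counts held in each fit with a library left out. Malate synthase (acu-9) had 58.8, 63.8 and 49.3 CPM in stage 2 and 121, 126 and 126 CPM in stage 3 (log2 change 1.12 ± 0.088 (SE), adjusted p = 3.34e-05). Phosphoenolpyruvate carboxykinase (acu-6) rose from 2.31 to 4.46 CPM, isocitrate lyase (acu-3) rose from 113 ± 2.22 to 167 ± 14.1 CPM and acetyl-CoA synthetase (acu-5) rose by 0.32 ± 0.062. The alcohol dehydrogenase gene adh-1 had 12.1, 27.7 and 10.7 CPM in stage 2 and 4.74, 2.81 and 4.52 CPM in stage 3 (log2 change -2.05 ± 0.37 (SE), adjusted p = 0.00282), and the pyruvate decarboxylase gene cfp had 106, 222 and 116 CPM in stage 2 and 67.2, 58.6 and 70.5 CPM in stage 3 (log2 change -1.18 ± 0.26 (SE), adjusted p = 0.00659). Both were far higher in stage 2 replicate 2 than in the other stage 2 libraries, as were NCU05498 and NCU04276, and both were lower in every stage 3 library than in every stage 2 library. Among 5 genes of sugar uptake 0 rose (0 at an unadjusted p below 0.05, 0 in DESeq2) and 2 fell (0% and 40%), the high-affinity glucose transporter gene hgt-1, with 69.2, 70.9 and 85.3 CPM in stage 2 and 19.96, 21.1 and 19.4 CPM in stage 3 (log2 change -1.90 ± 0.085 (SE), adjusted p = 2.85e-06), and the invertase gene inv, from 40.7 ± 6.39 to 26.6 ± 1.93 CPM (-0.61). The cellodextrin transporter cdt-1 was at 9.04 to 8.37 CPM (adjusted p = 0.296).

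Of 14 genes that handle reactive oxygen 8 were higher and 5 lower (57.1% and 35.7%). Catalases break down hydrogen peroxide, cat-1 being the enzyme of conidia and cat-3 that of growing hyphae. For cat-3 the values were 113, 112 and 106 CPM in stage 2 and 18.9, 15.2 and 18.1 CPM in stage 3 (log2 change -2.66 ± 0.081 (SE), adjusted p = 7.39e-07), and for cat-1 they were 20.3, 21.2 and 18.1 CPM in stage 2 and 3.16, 2.51 and 3.42 CPM in stage 3 (log2 change -2.70 ± 0.12 (SE), adjusted p = 3.02e-06). Each stage 3 library of either gene was at less than all stage 2 libraries by several fold. A further catalase gene, cat-2, rose by 0.35, and cat-4 fell from 18.1 to 14.9 CPM. All 4 listed glutathione S-transferase genes rose, gst-4 with 92.6, 88.2 and 83.8 CPM in stage 2 and 196, 165 and 191 CPM in stage 3 (log2 change 1.06 ± 0.075 (SE), adjusted p = 2.01e-05), gst-3 by 0.95, gst-1 by 0.89 and gst-2 by 0.57. Superoxide dismutase sod-1 rose from 645 ± 24.1 to 824 ± 13.1 CPM (0.35), sod-2 by 0.19 and thioredoxin (trx) by 0.18. The NADPH oxidase gene nox-1, whose product makes superoxide, fell from 221 ± 11.9 to 147 ± 2.06 CPM (log2 change -0.59 ± 0.057 (SE), adjusted p = 9.64e-05), and its regulator nor-1 had 205, 203 and 213 CPM in stage 2 and 110.1, 109 and 106 CPM in stage 3 (log2 change -0.93 ± 0.048 (SE), adjusted p = 4.59e-06).

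Many genes of cell fusion were lower in stage 3. Germlings of N. crassa find each other through the MAK-2 cascade (nrc-1, mek-2, mak-2) with its scaffold HAM-5 and through the protein SO, which alternate at the facing tips, and the cell wall integrity cascade (mik-1, mek-1, mak-1) is required as well. All 24 genes of cell fusion and the MAP kinase cascades were tested, of which 12 were lower (50%, against 20.6% of all genes tested), 12 were not called and 0 were higher (0 also at an unadjusted p below 0.05), with a median of -0.26. The lower count was 10 to 15 with a library left out, the highest without stage 3 replicate 2, when 2 members were called higher. In DESeq2 0 were higher and 14 lower.

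The kinase kinase gene of the wall integrity cascade, mek-1, changed most, with 703, 676 and 729 CPM in stage 2 and 322, 317 and 313 CPM in stage 3 (log2 change -1.15 ± 0.054 (SE), adjusted p = 3.22e-06). Its kinase gene mak-1 had 642, 625 and 671 CPM in stage 2 and 399, 387 and 388 CPM in stage 3 (log2 change -0.72 ± 0.053 (SE), adjusted p = 2.37e-05). Neither showed any overlap between stages, whereas mik-1, the uppermost kinase of the cascade, was at 87.7, 96.5 and 95.4 CPM in stage 2 and 108, 90.9 and 107 CPM in stage 3 (adjusted p = 0.206). The fusion gene so measured 320.1, 310.3 and 338 CPM in stage 2 and 167, 123 and 161 CPM in stage 3 (log2 change -1.10 ± 0.11 (SE), adjusted p = 0.000116), and the scaffold gene ham-5 measured 284, 287 and 305 CPM in stage 2 and 172, 136 and 166 CPM in stage 3 (log2 change -0.88 ± 0.09 (SE), adjusted p = 0.000127). In both genes stage 3 replicate 2 was the lowest library. Of the other fusion genes, ham-7, a surface sensor acting upstream of MAK-1, fell by 0.68 on the log2 scale, ham-8 fell by 0.57 and ham-10 fell by 0.53. Kinase genes of the MAK-2 cascade moved less, nrc-1 falling by 0.29, whereas mek-2 (-0.13) and mak-2 (-0.37) were not called, mak-2 being at 236, 244 and 247 CPM in stage 2 and 128, 222 and 212 CPM in stage 3 with a single low library. In the osmotic cascade os-2 fell from 512 ± 11.1 to 372 ± 3.36 CPM (-0.46) and os-4 fell by 0.29, and os-5 (0.06) was not called.

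Of 26 genes of actin and polarity 2 were higher (rho-3, 0.27, and rho-4, 0.20) and 3 lower (7.69% and 12%). The polarisome genes spa2 and bud6, whose products sit at the growing tip, were among the latter, with 109.7, 106 and 119 CPM in stage 2 and 76.7, 79.2 and 74.9 CPM in stage 3 for spa2 (log2 change -0.53 ± 0.057 (SE), adjusted p = 0.00017) and 189, 176 and 197 CPM in stage 2 and 130.5, 110.2 and 133 CPM in stage 3 for bud6 (log2 change -0.59 ± 0.081 (SE), adjusted p = 0.000664), both without overlap. The third was rdi-1 (-0.24). Actin (act) had a log2 change of -0.06 ± 0.11 and cdc42 one of -0.11 ± 0.048, neither called. The higher count was 1 without stage 2 replicates 1 and 2 or stage 3 replicate 3 and 5 without stage 3 replicate 2, and the lower count 6 without stage 3 replicate 2, with 4 higher and 3 lower with library totals. Of 17 genes of microtubules and motors 2 rose (tba-2, an alpha-tubulin, 0.26, and ro-11, 0.16) and 4 fell (ro-1, ro-7, ro-4 and ro-3, from -0.27 to -0.18), or 11.8% and 23.5%, with 1 without stage 2 replicates 1, 2 and 3 or stage 3 replicate 1 and 4 without stage 3 replicate 2 for the former and 2 without stage 2 replicates 1 and 3 for the latter, and 4 higher and 2 lower with library totals. In the list of NDR kinases and septation, 3 of 11 genes rose, led by hex-1, which makes the core of the Woronin body that plugs septal pores, from 932 ± 50.4 to 1460 ± 93.7 CPM (log2 change 0.65 ± 0.067 (SE), adjusted p = 0.000142), with cdc15 (0.34) and dbf2 (0.21). The list had 27.3% and 18.2% higher and lower. The falls were in mob-1, an activator of NDR kinases, from 24.97 ± 1.99 to 14.4 ± 1.46 CPM (-0.79) and the NDR kinase gene cot-1 (-0.18). The lower count was 1 without stage 2 replicates 2 and 3 or stage 3 replicate 1.

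**Figure D4:**
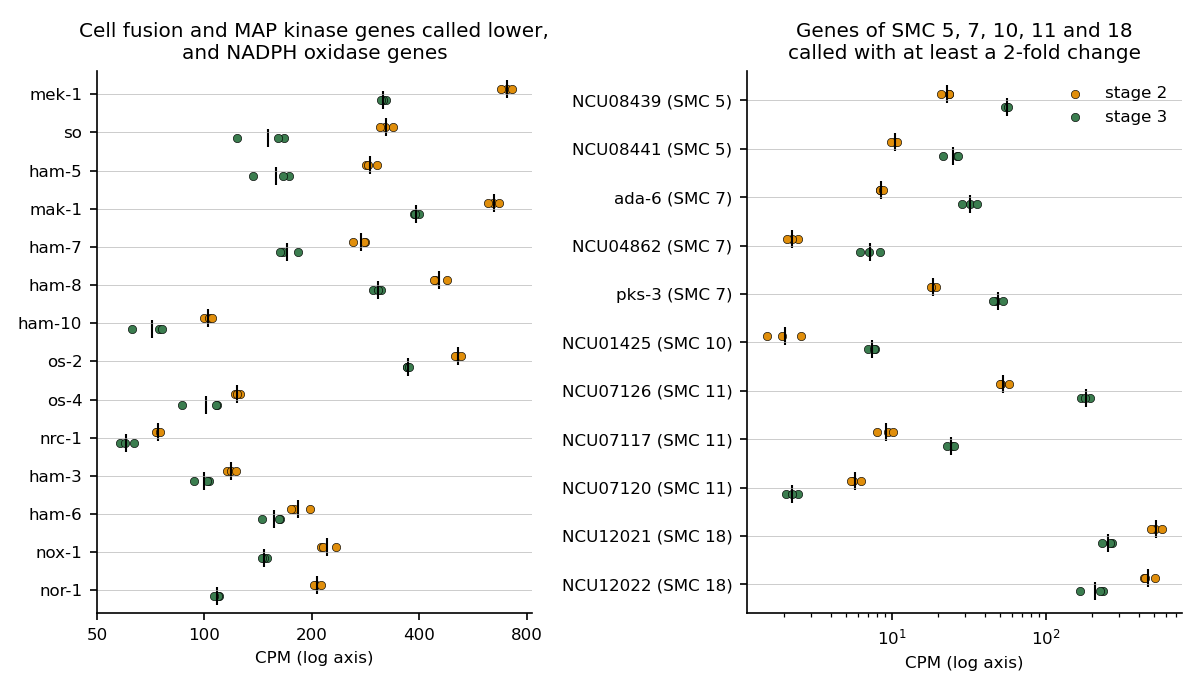
Level in each library (CPM, log axis) of the 12 cell fusion and MAP kinase genes called lower in stage 3 with the NADPH oxidase genes nox-1 and nor-1 (left), and of the genes of clusters 5, 7, 10, 11 and 18 of secondary metabolism (SMC) called with at least a 2-fold change (right). Orange points are stage 2 libraries, green points stage 3 libraries and black bars stage means. The gap between stages is widest on the left for mek-1, so and nor-1.

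Genes of the fungal wall moved in both directions. Chitin and beta-1,3-glucan are the structural fibres of the wall, made at the tip and trimmed and cross-linked behind it. Of 52 listed genes 48 were tested, with 9 higher and 16 lower (18.8% and 33.3%, median -0.10) and 12 higher and 12 lower with library totals. The chitin synthase genes chs-1 (-0.44 ± 0.064), chs-3 (-0.40 ± 0.058) and chs-5 (-0.37 ± 0.054) fell, as did gfa1 (-0.40 ± 0.051), which makes the precursor of chitin, and do (-0.23 ± 0.061), the glucan synthase gene. For chs-1 the values were 259, 264 and 286 CPM in stage 2 and 208, 188 and 201 CPM in stage 3. Another chitin synthase gene, chs-6, rose from 1.08 to 1.72 CPM (adjusted p = 0.0332). Among the genes with the deepest falls were gh76-5, of the family 76 glycoside hydrolases, with 377, 368 and 425 CPM in stage 2 and 210.1, 199 and 193 CPM in stage 3 (log2 change -0.96 ± 0.071 (SE), adjusted p = 2.49e-05), and the wall protein gene ncw-4 (-0.71 ± 0.059). The glucanosyltransferase gene gel-1 fell from 3.29 to 1.62 CPM, and gh18-8 (0.222 to 0.0358 CPM) was near the floor in both stages. Besides chit-1, the rises were led by acw-12 (0.81), gh16-1 (0.78) and gh18-7 (0.75, a family 18 chitinase), with gh16-1 at 72.4, 79.3 and 79.8 CPM in stage 2 and 139, 109 and 151 CPM in stage 3. The lower count was 11 to 20 with a library left out.

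Plant cell wall degradation, which this fungus uses to feed on dead wood and grass, was low in both stages. Of 45 genes 33 were tested, and 10 rose and 2 fell (30.3% and 6.06%). The number that rose was 3 without stage 2 replicates 2 and 3 or stage 3 replicate 3 and 5 without stage 3 replicate 1. The largest rises were in gh61-5 (0.435 to 0.960 CPM), gh3-6 (0.595 to 1.07 CPM), gh6-2 (4.91 to 8.67 CPM) and gh3-1 (2.03 to 3.41 CPM), and the falls were in gh35-1 (3.00 to 1.304 CPM) and gh61-7 (12.1 to 6.80 CPM). The cellobiohydrolase gene cbh-1 was at 4.55, 4.05 and 4.72 CPM in stage 2 and 3.21, 3.95 and 4.76 CPM in stage 3 (adjusted p = 0.442).

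Of 53 amino acid synthesis genes, all tested, 27 were higher (50.9%, against 22.5% of all genes), 5 lower and 21 not called, with a median of 0.19. Arginine genes led, with 214, 225 and 219 CPM in stage 2 and 458, 361 and 468 CPM in stage 3 for arg-12, the ornithine carbamoyltransferase gene (log2 change 0.97 ± 0.10 (SE), adjusted p = 0.000116). Next was cpc-3, the sensor kinase of cross-pathway control, which raises many amino acid genes at once when an amino acid runs short, with 101, 102 and 108 CPM in stage 2 and 191, 194 and 202 CPM in stage 3 (log2 change 0.92 ± 0.051 (SE), adjusted p = 6.69e-06). Replicates lay close together for cpc-3, whereas for arg-12 stage 3 replicate 2 (361 CPM) was well below the other stage 3 libraries. The transcription factor gene of the same control, cpc-1, had 2370, 2392 and 2344 CPM in stage 2 and 3073, 3435 and 3186 CPM in stage 3 (log2 change 0.45 ± 0.055 (SE), adjusted p = 0.00035). Among the others, arg-5 rose by 0.88 and arg-10 by 0.83. The falls were small, with lys-7 (-0.40), pro-1 (-0.26), leu-1 (-0.26), met-10 (-0.26) and leu-6 (-0.24). With a library left out the higher count was between 23 and 36, and the lower count was 2 without stage 2 replicate 2, 3 without stage 2 replicate 1 and 9 without stage 3 replicate 2.

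Of 17 genes of nitrogen assimilation 7 were higher and 2 lower (41.2% and 11.8%), led by nit-4 (0.38), the activator of nitrate use, nit-10 (0.34), gln-2 (0.33), a glutamine synthetase gene, and alc-1 (0.29), against gdh-1 (-0.29) and xdh-1 (-0.45). The higher count was 4 without stage 2 replicates 1 and 2 or stage 3 replicate 1 and 11 without stage 3 replicate 2. Among 13 sulfur genes the sulfate permease gene cys-14 rose, with 71.8, 72.8 and 54.2 CPM in stage 2 and 123, 119 and 125 CPM in stage 3 (log2 change 0.88 ± 0.10 (SE), adjusted p = 0.000298), and cys-2 (-0.35) and cys-16 (-0.23) fell, or 7.69% and 15.4% of the list. Its lower count was 1 without stage 2 replicates 1, 2 and 3, the higher count was 4 without stage 3 replicate 2, and the counts were 4 higher and 2 lower with library totals. Among 7 phosphate genes pho-4, a phosphate permease gene, was called (0.29 ± 0.087; 14.3% and 0%), with a count of 0 without stage 2 replicates 1, 2 and 3 or stage 3 replicates 1 and 3 and 2 without stage 3 replicate 2.

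Among genes of cytosolic ribosomal proteins only those with a symbol were listed, and their transcripts fell by similar amounts. Of the 11 genes with a symbol, 10 were lower (90.9%, against 20.6% of all genes) and 0 higher (edgeR, 0 also at an unadjusted p below 0.05 and 0 in DESeq2), between -0.38 (crp-15) and -0.21 (un-16), with a median of -0.27. The lower count was between 7 and 10 with a library left out and 8 with library totals. The largest falls were in crp-15 and po, the latter with 4321, 4356 and 4182 CPM in stage 2 and 3534, 3089 and 3338 CPM in stage 3 (log2 change -0.37 ± 0.059 (SE), adjusted p = 0.00145), followed by crp-10 (-0.36) and crp-4 (-0.31). Of 4 translation factors 3 were lower (75%), un-10 (-0.29), tef-1 (-0.25), the elongation factor 1-alpha gene with 28860, 29410 and 28360 CPM in stage 2 and 25780, 21570 and 25380 CPM in stage 3, and eif5A (-0.18). The count was 0 without stage 2 replicates 1 and 2 and 1 without stage 2 replicate 3. Elongation factor 2 (cot-3) had 6692, 6815 and 6614 CPM in stage 2 and 5967, 4175 and 5807 CPM in stage 3 (adjusted p = 0.0533).

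Heat shock proteins were mixed although both stages were grown at 37 °C. Of 13 genes 3 rose and 3 fell (23.1% and 23.1%). The abundant hsp70-1 fell, with 5536, 5588 and 5303 CPM in stage 2 and 3766, 2899 and 3689 CPM in stage 3 (log2 change -0.67 ± 0.10 (SE), adjusted p = 0.000787), as did hsp80 (-0.37) and hsp70-2 (-0.31). Of those that rose, hsp78 went from 40.5 ± 2.46 to 59.0 ± 3.89 CPM (0.54), hsp70-5 rose by 0.35 and hsf-2, a heat shock factor gene, by 0.18. The small heat shock protein gene hsp30 was at 59.6, 57.0 and 57.9 CPM in stage 2 and 58.8, 71.9 and 59.5 CPM in stage 3 (adjusted p = 0.231).

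Changes were under 0.5 on the log2 scale in nearly all members of the next 4 lists. Of 30 proteasome genes 10 rose, led by pcb-4 (0.44), rpt-1 (0.31), pcb-5 (0.25) and rpn-11 (0.23), and rpn-12 (-0.29) fell (33.3% and 3.33%). The number of rises was 3 without stage 2 replicate 1, 5 without stage 2 replicate 2 and 6 without stage 3 replicates 1 and 3. Of 31 genes of mitochondrial import 8 rose, led by tim17 (0.40), mmm-1 (0.31), tob37 (0.27) and tim44 (0.25), and 4 fell, tom5 (-0.30), tim10 (-0.30), mim1 (-0.20) and un-4 (-0.15). These shares (25.8% and 12.9%) were near or below those of all genes. The higher count was 3 without stage 2 replicates 1 and 3, 4 without stage 3 replicate 1 and 5 without stage 2 replicate 2, and 13 with library totals. Of 20 genes of peroxisome biogenesis 3 rose, pex16 (0.25), pex14 (0.21) and pex31 (0.18), and 4 fell, pex4 (-0.40), pex6 (-0.36), pex5 (-0.35) and pex11 (-0.34), with 6 without stage 3 replicate 2 for the rises, shares of 15% and 20% and 5 higher and 4 lower with library totals. Of 17 genes of histones and DNA replication hH1 (0.33) and hH2B (0.18) rose and 6 fell, among them the sliding clamp gene pcn (-0.32), pold-1 (-0.24), rpa-1 (-0.23) and un-24 (-0.22), shares of 11.8% and 35.3%, with 3 higher and 3 lower with library totals. The lower count was 3 without stage 2 replicate 3, and the higher count 1 without stage 2 replicates 1, 2 and 3.

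Of 24 genes of proton and cation transport 8 rose and 3 fell (33.3% and 12.5%). Those that fell are calcium transporters, nca-2, a plasma membrane calcium pump, from 219.5 ± 17.3 to 140.1 ± 2.27 CPM (log2 change -0.65 ± 0.066 (SE), adjusted p = 0.000125), the exchanger cax (-0.55) and nca-1 (-0.20). The rises were led by ph7 (0.66), the potassium transporters hak-1 (0.40) and trk (0.35) and vma-4 (0.28), a subunit of the vacuolar proton pump, and pma-1 rose by 0.21. With single libraries left out, rises numbered 3 without stage 2 replicates 1 and 2 or stage 3 replicate 3 and 4 without stage 3 replicate 1 and falls 6 without stage 3 replicate 2.

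Of 18 genes of carotenoid synthesis, light response and the clock 8 were higher and 2 lower (44.4% and 11.1%, median 0.22). The pathway from geranylgeranyl diphosphate to the orange pigment neurosporaxanthin was represented by al-3, al-2, al-1, cao-2 and ylo-1. The phytoene synthase gene al-2 had 13.97, 13.3 and 13.6 CPM in stage 2 and 22.6, 24.1 and 23.6 CPM in stage 3 (log2 change 0.78 ± 0.065 (SE), adjusted p = 4.39e-05), and the aldehyde dehydrogenase gene ylo-1, which acts late in the pathway, had 50.6, 50.2 and 54.1 CPM in stage 2 and 84.97, 90.8 and 85.6 CPM in stage 3 (log2 change 0.75 ± 0.05 (SE), adjusted p = 1.48e-05). Every stage 3 library was above every stage 2 library for both. The diphosphate synthase gene al-3 rose by 0.66 ± 0.065 and the phytoene dehydrogenase gene al-1 by 0.56 ± 0.063, and the cleavage oxygenase gene cao-2 was not called (0.06 ± 0.068). The blue light photoreceptor genes wc-1 and vvd rose by 0.61 and 0.46, and the phytochrome gene phy-2 rose from 0.526 to 1.42 CPM. The photolyase gene phr (-0.29) and bli-3 (-0.93) fell. The clock gene frq was at 54.2, 57.4 and 52.7 CPM in stage 2 and 51.3, 54.6 and 51.9 CPM in stage 3 and wc-2 changed by 0.09 ± 0.044, neither being called.

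Of 7 listed genes of fatty acid and sterol synthesis 6 rose and 1 fell (85.7% and 14.3%). The higher count was 4 to 6 with a library left out, and the lower count was 0 without stage 2 replicates 1, 2 and 3 or stage 3 replicate 3 and 0 with library totals or all 12 libraries in the fit. The phospholipid methyltransferase gene chol-1 had 197, 198 and 179 CPM in stage 2 and 318, 276 and 304 CPM in stage 3 (log2 change 0.65 ± 0.071 (SE), adjusted p = 0.000196). The sterol gene NCU03006, erg-4 in the reference table and erg-6 in the study, had 207, 208 and 207 CPM in stage 2 and 309.6, 304 and 316 CPM in stage 3 (log2 change 0.58 ± 0.049 (SE), adjusted p = 4.68e-05), with replicates within a few CPM. Next were erg-1 (0.41) and the fatty acid synthase genes cel-1 (0.38) and cel-2 (0.37), and erg-3 fell by 0.17. The list is small and partial, and chol-1 in it belongs to phospholipid synthesis. A further sterol gene, NCU06054 (erg-9 in the study), was not in the list. It was at 288 CPM in stage 2 and 296 CPM in stage 3 and was not called (log2 change 0.04, edgeR adjusted p = 0.539).

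**Figure D5:**
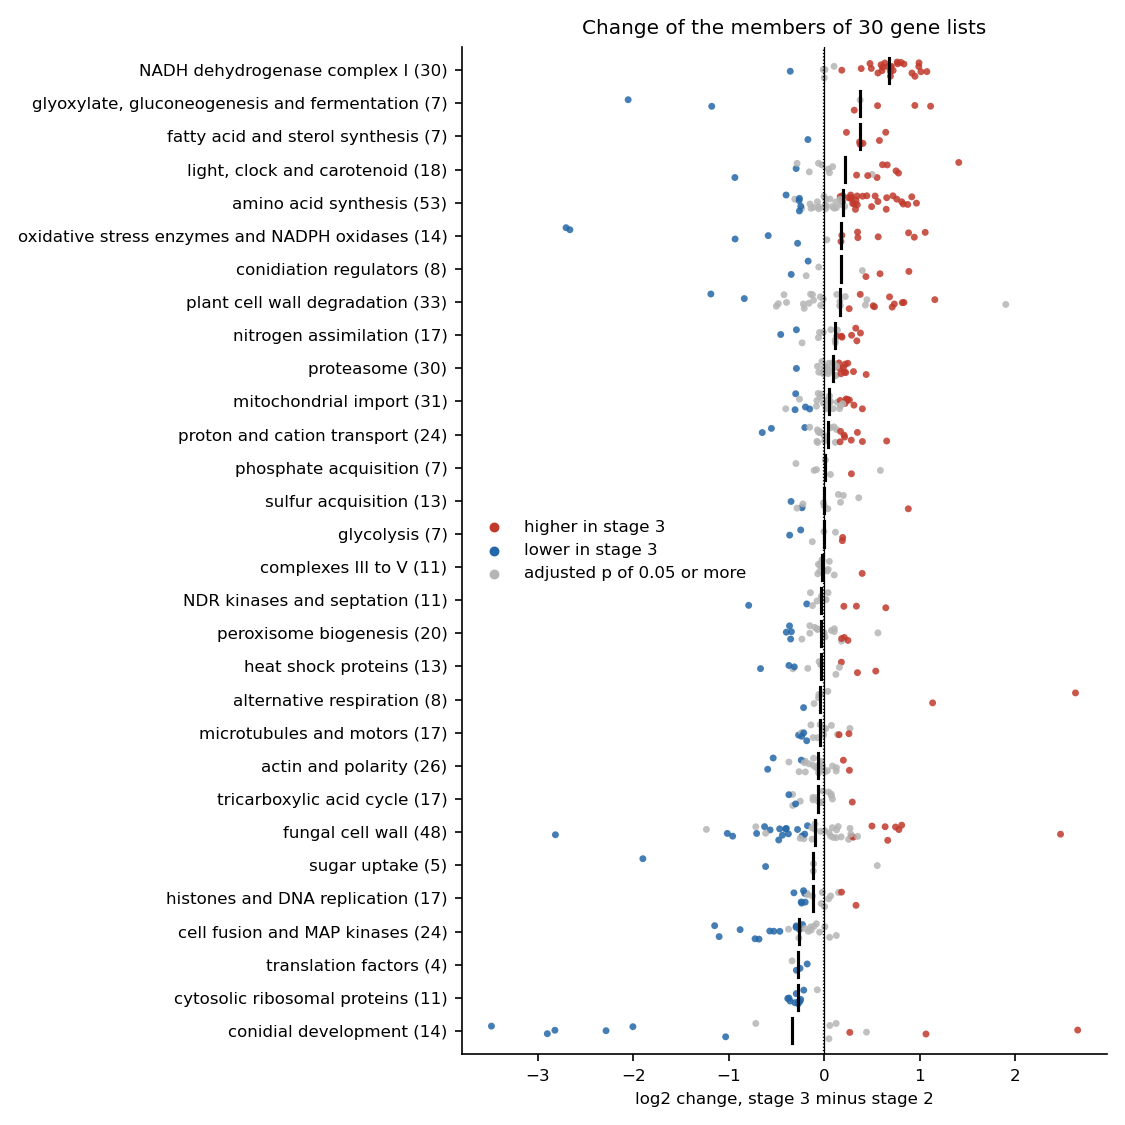
Log2 change from stage 2 to stage 3 (horizontal axis) of each tested member of the 30 gene lists, ordered by the median of the list (black bar), with the number of tested members in brackets. Red points were higher in stage 3, blue points lower and grey points had an adjusted p of 0.05 or more, and the dotted line is the median of all tested genes. Complex I has the highest median (0.68) and conidial development the lowest (-0.33).

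Secondary metabolism clusters (SMCs) are neighbouring genes predicted to serve the synthesis of a compound not needed for growth. Those of the study also hold genes counted in lists above, such as al-2, al-3, cel-1, cel-2 and nuo21.3c. The study followed their expression across the life cycle, asexual growth included. Of the genes in the 20 SMCs of the study 133 were tested, with 44 higher (33.1%, against 22.5% of all genes) and 23 lower (17.3%, against 20.6%), and a median of 0.10. With a library left out the higher count was 38 to 50 and the lower count 16 to 22. In SMC 7 the polyketide synthase gene pks-3 had 18.1, 19.4 and 17.9 CPM in stage 2 and 47.7, 45.3 and 52.6 CPM in stage 3 (log2 change 1.39 ± 0.074 (SE), adjusted p = 5.12e-06) and its neighbour ada-6, a transcription factor gene, had 8.33, 8.31 and 8.79 CPM in stage 2 and 32.1, 28.6 and 35.8 CPM in stage 3 (log2 change 1.92 ± 0.095 (SE), adjusted p = 3.56e-06). NCU04862 rose as well, from 2.26 ± 0.179 to 7.20 ± 1.08 CPM (1.68), and NCU04861 fell from 5.69 to 4.09 CPM (-0.48). In SMC 5 the nonribosomal peptide synthetase gene nps-1 (NCU08441) had 10.54, 10.8 and 9.81 CPM in stage 2 and 26.4, 21.5 and 27.0 CPM in stage 3 (log2 change 1.26 ± 0.10 (SE), adjusted p = 3.5e-05) and the transporter gene abc-2 (NCU08439) had 20.83, 23.6 and 23.5 CPM in stage 2 and 56.2, 54.1 and 56.9 CPM in stage 3 (log2 change 1.299 ± 0.062 (SE), adjusted p = 3.32e-06). NCU08440 between them rose by 0.86, and NCU08443 (-0.78) and NCU08436 (-0.25) fell.

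SMC 4, which includes the tryptophan synthesis gene trp-3, had 6 genes higher and 2 lower of 10 tested (60% and 20%), the higher count being 3 without stage 2 replicates 2 and 3 or stage 3 replicate 1 and the lower count 0 without stage 2 replicates 1, 2 and 3 and 1 without stage 3 replicates 1, 2 and 3. Its called genes of more than 10 CPM changed by less than 2-fold, among them NCU08402 (246 ± 11.2 to 337 ± 17.84 CPM, log2 change 0.46 ± 0.063), NCU08408 (0.52 ± 0.052) and trp-3 (0.40 ± 0.064), all higher, and NCU08410 (-0.19 ± 0.064), which was lower. SMC 2 had 4 of 12 tested genes higher, among them NCU03006 and NCU03016 (0.88), and 3 lower, among them acw-10 (-0.48), or 33.3% and 25%. SMC 8 consists of cel-1 and cel-2, described above. In SMC 11, 4 of 8 tested genes were higher and 1 lower (50% and 12.5%). Its gene NCU07126 had 50.7, 50.1 and 57.9 CPM in stage 2 and 169, 192 and 180.3 CPM in stage 3 (log2 change 1.77 ± 0.075 (SE), adjusted p = 2.19e-06). NCU07117 (1.40) rose while NCU07120 (-1.36) fell, and the synthetase gene of the cluster, nps-2, was not called (0.10 ± 0.081). In SMC 10, NCU01425 (1.87), al-3 and NCU01424 (0.54) rose. In SMC 18 the abundant genes NCU12021 and NCU12022 fell, with 434, 440.1 and 514 CPM in stage 2 and 234, 167 and 223 CPM in stage 3 for NCU12022 (log2 change -1.15 ± 0.13 (SE), adjusted p = 0.00021) and a change of -1.04 ± 0.082 for NCU12021. Annotated spans overlap for NCU12021 and NCU12022, for NCU01424 and NCU01425 of SMC 10, and for NCU07120 and nps-2 of SMC 11. In SMC 16 the largest fall was that of lap-2 (NCU04994), with 32.5, 32.6 and 25.6 CPM in stage 2 and 5.57, 4.72 and 5.96 CPM in stage 3 (log2 change -2.47 ± 0.13 (SE), adjusted p = 4.4e-06), whereas NCU04996 (1.13) rose, and in SMC 17 NCU08397 fell from 138 ± 20.3 to 54.4 ± 4.42 CPM (-1.34). SMC 20 held genes at the edge of detection. Its gene poi-2 rose from 0.473 to 5.57 CPM (log2 change 3.51 ± 0.25), NCU17268 had 0.483, 0.773 and 0.990 CPM in stage 3 after 0.0933, 0 and 0.0825 CPM in stage 2, and NCU05761 had 0 counts in stage 2 and 55 in stage 3, at least 17-fold higher against a floor of 3 counts over the stage 2 libraries together. The remaining members called in SMC 20 were NCU05764 and NCU05766 (0.40). In SMC 6 NCU09639 rose from 0.839 to 2.71 CPM, and in SMC 15 the complex I gene nuo21.3c and thi-7 (NCU05014) rose by 0.92 and 0.92. The other called SMC genes changed by less than 2-fold or belonged to the genes named above, apart from NCU16586 of SMC 4, NCU17064 of SMC 12 and NCU05005 and NCU10537 of SMC 16.

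Runs of neighbouring genes that changed together were also counted. A run was made of consecutive protein-coding genes all called in the same direction with a log2 change of at least 0.5 in size. Among all 8047 tested genes, 755 were called higher and 557 lower with a change of this size. There were 22 runs of 3 or more genes, 12 higher and 10 lower. The longest was of 5 genes on chromosome VII (1370478 to 1382188) that fell, NCU09717 (-0.80), NCU09716 (-0.54), NCU09715 (-0.63), NCU09714 (-3.15) and NCU09713 (-1.17). NCU09715 was the most abundant among them, with 289.6, 277 and 271 CPM in stage 2 and 181, 182 and 176.9 CPM in stage 3, and NCU09714 and NCU09713 overlap in the annotation. A run of 4 on chromosome IV (694303 to 701177), NCU04907, NCU16742, NCU04908 and NCU11293, fell by 0.95 to 1.65 on the log2 scale. A run of 4 on chromosome VII (3616556 to 3624845), NCU08169, NCU08170, acw-12 and NCU08172, rose by 0.81 to 1.62. In the annotation acw-12 and NCU08172 overlap. No test was made of whether runs of this length differ from chance. Of 96 noncoding RNA genes tested 10 were higher and 9 lower, each share below that of all tested genes.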

How the data were processed

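Reads of the 6 libraries came from oligo(dT)-purified RNA and stranded libraries. According to their protocol notes and methods, the authors called bases with CASAVA 1.8.2, trimmed reads, aligned them to the OR74A genome with HISAT2 2.1.0, dropped reads of low mapping quality and counted with StringTie 1.3.3b and its count script. The deposited table holds expected counts (estimated counts, whole numbers derived from coverage), not normalized. A fragment can add more than 1 count, so floors cover counting error only. A second deposited file, with ratios to the lowest stage of each gene, interval widths, acceptance ratios and log-likelihoods estimated by the authors, was not used.

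Rows NCU17319 and NCU15719, which are rRNA and took up to 37.7% of a library, were left out of library sizes and tests. Genes passed filterByExpr (minimum count 10, total 15) in the 6 libraries, which left 8047 of 10592; 1273 had no count. Counts were scaled by TMM and tested with the quasi-likelihood F test of edgeR 4.0.16 (R 4.3.3), with Benjamini-Hochberg adjustment over all tested genes and a threshold of 0.05. The biological coefficient of variation was 10.4%. Standard errors are the change over the square root of F. Figures used Python with matplotlib 3.10.9. The test was tried on simulated counts. Alternatives were all 12 libraries in the fit, DESeq2 and its size factors, library totals, the rRNA rows kept or every rRNA row removed, no filter, a mean of at least 10 CPM, a replicate block and each library left out.

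Symbols and coordinates are from RefSeq assembly NC12, matched for 10590 IDs, 1118 with a symbol; no list was formed for mitochondrial ribosomal proteins, ribosome biogenesis or siderophores, which lack symbols there. Genes named are the 12 largest rises and falls among called genes averaging 10 CPM or more in the higher stage, with no overlap of libraries, up to 4 rises and falls in each of 30 lists with their defining genes, and called genes of the 20 SMCs. The members and lists were chosen with earlier results of these data known.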

Additional observations from a re-analysis of the deposited data

How the results depend on the processing

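The count of called genes stayed within 1.5 times of 3473 under all 15 alternatives, between 2633 (without stage 2 replicate 2) and 3992 (without stage 3 replicate 2). Called genes with at least a 2-fold change numbered 448, 423 to 481 with a library left out, and 168 when genes were required to average 10 CPM over the 6 libraries, since fewer genes were then tested (5820). With the rRNA rows kept 3457 genes were called, with DESeq2 3685, and with all 12 libraries in the fit 3256, of which 3099 were also called in the main result. Over the 30 lists together 267 members were called, 199 to 339 under the alternatives. For the 24 genes with the largest changes all 354 values that could be computed kept their direction and an edgeR or DESeq2 adjusted p below 0.05. With the replicate block the count was 3164, and 428 with a 2-fold change. No pairing by replicate number was seen. Deviations of same-numbered libraries of the 2 stages correlated across 5820 genes at -0.15, -0.086 and -0.093, and no library correlated best with its own number. These deviations are from means of 3 libraries, so a small shared effect could go unseen. Depth limited genes under about 1 CPM, where 3 counts were 0.0483 to 0.0682 CPM in a library. With 3 libraries a stage, a call that misses the threshold does not show that stages were alike.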
